A study of Mus musculus with 13 samples.

Results

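Keratin and keratin-associated genes were examined as a set of tissue-restricted genes in mouse neural stem and progenitor cells. A gene was taken when the symbol paired with its Entrez identifier began with Krt and a digit, or with Krtap. Among the 20689 gene bodies of the authors' table, 40 met this rule, 32 Krt genes and 8 Krtap genes. The cluster on chromosome 11 held 21 of them (17 Krt and 4 Krtap), that on chromosome 15 held 15 Krt genes, and that on chromosome 16 held Krtap6-2 and Krtap7-1. Krtap28-13 on chromosome 1 and Krtap5-5 on chromosome 7 lay outside the clusters. None of the 40 shared bases with another gene body, and all 40 would pass a minimum mean of 0.1 RPKM. RefSeq holds 111 symbols of this form, 50 on chromosome 11, 27 on chromosome 15 and 24 on chromosome 16, so most of the family is missing from the set. Krt5, Krt8, Krt18, Krt35, Krt71 and Krt85 had no gene body matched to their symbol and were not analysed here.

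The values came from chromatin immunoprecipitation and sequencing of cells isolated from the cortex and ganglionic eminences of embryos at embryonic day 14.5 and grown as floating colonies (neurospheres) to passage 5, day 3. Antibodies against H3K14ac, the acetylated lysine of histone H3 that the acetyltransferase KAT7 (HBO1) produces, were used on 4 isolates of genotype Kat7+/+ NesCreT/+ (Kat7 intact) and 3 of genotype Kat7lox/lox NesCreT/+ (Kat7 deleted), and antibodies against KAT7 on 3 intact isolates and 1 deleted isolate, with 1 IgG library per experiment, 13 libraries in all. Both genotypes carried the Cre transgene, driven by regulatory sequence of nestin (Nes), which acts in neural progenitors. The deposited table gives 1 merged value per antibody, with no statement of the libraries or genotypes that went into it, so genotypes could not be compared and IgG could not be subtracted.

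Keratins are the intermediate filament proteins of epithelia. Type I keratins, encoded mostly on mouse chromosome 11, pair with type II keratins, encoded on chromosome 15, to form filaments. Different pairs mark simple epithelia, the layers of stratified epithelia, and the hair shaft and its inner root sheath, while keratin-associated proteins cross-link the filaments of the hair shaft. Neural progenitors build their filaments from nestin and vimentin instead. The file marks each gene as Top, Bottom or neither in expression, with 5.00% of genes in Bottom and no account of the expression data used. Of 8 markers of neural stem and progenitor cells, 5 were Top (Fabp7, Nes, Olig2, Sox2 and Vim) and none Bottom. Of 7 epithelial markers, 4 had a gene body, of which Cdh1, Krt14 and Trp63 were Bottom and Epcam neither. Among the keratin genes, 16 of 40 (40%) were Bottom and none was Top; all 16 were Krt genes.

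The DNA just upstream of the start sites is shown first, because the members differ there in a way that the rule did not use. RefSeq (GRCm38.p6) gave a start site within 100 bases of the file's gene start for 26 of the 40 members. Below are the 250 bases upstream of 6 of them, 5′ to 3′ on the gene's strand. Capitals mark TATAAA, the letters of a TATA box, and the dinucleotide CG. Krt10 is the one member with raised KAT7, Krt42 is one of those with the lowest KAT7, Krt7 has its start site in a CpG island of the file, and Krt20, Krt31 and Krtap6-2 stand for a simple epithelial keratin, a hair keratin and the chromosome 16 cluster.
Krt10, chr11:99389365-99389614, minus strand: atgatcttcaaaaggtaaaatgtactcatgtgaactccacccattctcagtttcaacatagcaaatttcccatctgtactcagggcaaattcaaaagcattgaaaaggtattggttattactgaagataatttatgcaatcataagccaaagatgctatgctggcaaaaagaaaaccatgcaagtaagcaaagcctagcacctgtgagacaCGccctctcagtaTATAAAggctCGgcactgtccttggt
Krt20, chr11:99438154-99438403, minus strand: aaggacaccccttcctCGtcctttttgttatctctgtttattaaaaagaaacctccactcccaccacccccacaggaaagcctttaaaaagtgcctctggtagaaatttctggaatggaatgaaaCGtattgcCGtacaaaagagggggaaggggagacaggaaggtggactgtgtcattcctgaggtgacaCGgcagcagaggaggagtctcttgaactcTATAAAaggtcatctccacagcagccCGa
Krt31, chr11:100050552-100050801, minus strand: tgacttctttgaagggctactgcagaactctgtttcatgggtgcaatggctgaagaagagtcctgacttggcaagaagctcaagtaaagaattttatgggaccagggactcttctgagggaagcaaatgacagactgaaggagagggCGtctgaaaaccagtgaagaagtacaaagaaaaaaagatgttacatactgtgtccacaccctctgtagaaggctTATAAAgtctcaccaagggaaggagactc
Krtap6-2, chr16:89420112-89420361, minus strand: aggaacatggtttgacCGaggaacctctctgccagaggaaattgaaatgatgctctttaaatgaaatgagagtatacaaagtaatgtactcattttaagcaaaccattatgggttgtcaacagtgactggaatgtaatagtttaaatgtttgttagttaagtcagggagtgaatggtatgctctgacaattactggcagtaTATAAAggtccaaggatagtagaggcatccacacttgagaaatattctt
Krt42, chr11:100269952-100270201, minus strand: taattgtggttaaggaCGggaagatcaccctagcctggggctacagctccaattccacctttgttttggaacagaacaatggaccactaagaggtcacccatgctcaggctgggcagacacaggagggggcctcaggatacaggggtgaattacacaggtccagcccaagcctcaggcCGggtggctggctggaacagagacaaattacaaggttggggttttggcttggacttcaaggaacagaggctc
Krt7, chr15:101412153-101412402, plus strand: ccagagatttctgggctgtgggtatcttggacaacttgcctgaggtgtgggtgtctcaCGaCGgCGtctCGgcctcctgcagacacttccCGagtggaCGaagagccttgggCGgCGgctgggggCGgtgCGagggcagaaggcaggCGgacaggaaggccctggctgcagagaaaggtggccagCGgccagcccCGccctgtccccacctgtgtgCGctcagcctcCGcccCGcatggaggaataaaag

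With the base before the start site counted as -1, TATAAA began at -26 in Krt10, at -29 in Krt20 and Krt31 and at -49 in Krtap6-2, and it was absent from the windows of Krt42 and Krt7. On either strand, 14 of the 26 windows (53.8%) held TATAAA, against 12.4% of all 32851 entries of the RefSeq promoter table, 9.07% of the 13841 entries at a gene start of the file and 16.7% of the 654 entries of other Bottom genes. On the sense strand, beginning 20 to 40 bases upstream, it was found in 11 of 26 (42.3%), against 1.99%, 2.02% and 3.98% in the same 3 backgrounds. These 11 were 7 of 19 Krt and 4 of 7 Krtap windows. Krt76 was the only chromosome 15 window among them. The keratin windows were also poor in CG: the median was 3.5 per 250 bases, against 13 at all gene starts of the file and 3 at other Bottom genes. The window of Krt7 held 16 CG, the most of any member, and a GC content of 66.0%. A match to these letters is a description of the sequence and not evidence of a bound factor.

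Levels are given as RPKM, reads scaled by region length and by a total per column (141734087 for H3K14ac and 134111848 for KAT7), with 95% intervals that cover counting error only. Members ranged from 620 to 15403 bases and held 28 to 783 H3K14ac reads and 31 to 674 KAT7 reads. Short regions have higher RPKM in this file, so each member was set against the median of other gene bodies of like length, in 20 length bins. A member was called above or below when its whole interval lay on that side. There are no replicates behind the merged values and no p-value is given.

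H3K14ac over the keratin gene bodies was close to that of other genes of like length, on a side that changed with the reference, and KAT7 was lower. Summed over the 40 members, H3K14ac was 0.377 (0.370 to 0.383) RPKM, 1.01 (0.994 to 1.03) times the length-matched reference. KAT7 was 0.342 (0.336 to 0.348) RPKM, 0.859 (0.843 to 0.875) times its reference. All other gene bodies had summed levels of 0.387 for H3K14ac and 0.395 for KAT7, and the Top class 0.390 and 0.428. With no IgG subtracted, how much of these levels is background reads is not known. A level is therefore not evidence of acetylation or of bound KAT7 at a gene. For H3K14ac, 4 members were above the reference, where 23.8% of all 15834 gene bodies used were called above, and 3 were below, against 23.3%. All but Krtap5-5 and Krtap7-1 of these were Krt genes, 3 above and 2 below, where the length range of the Krt genes gave 20.7% above and 19.7% below. For KAT7, 24 of 40 members were below, against 23.0% of all gene bodies, and 1 was above, against 23.3%. All 24 were among the 32 Krt genes; within the length range of the Krt genes the background was 19.1%. With the Bottom class alone as the reference, 12 members were below for KAT7, and the summed level was 0.915 (0.898 to 0.932) times the reference; H3K14ac was then 0.982 (0.966 to 0.999). With gene bodies that share bases kept in the reference, H3K14ac was 1.03 (1.01 to 1.04) over all members and 1.03 (1.01 to 1.06) on chromosome 15, and 6 members were above. The shares of all gene bodies called with the Bottom reference, or with these gene bodies kept, were not computed. The counts of 12 and 6 thus have no background beside them.

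**Figure D1:**
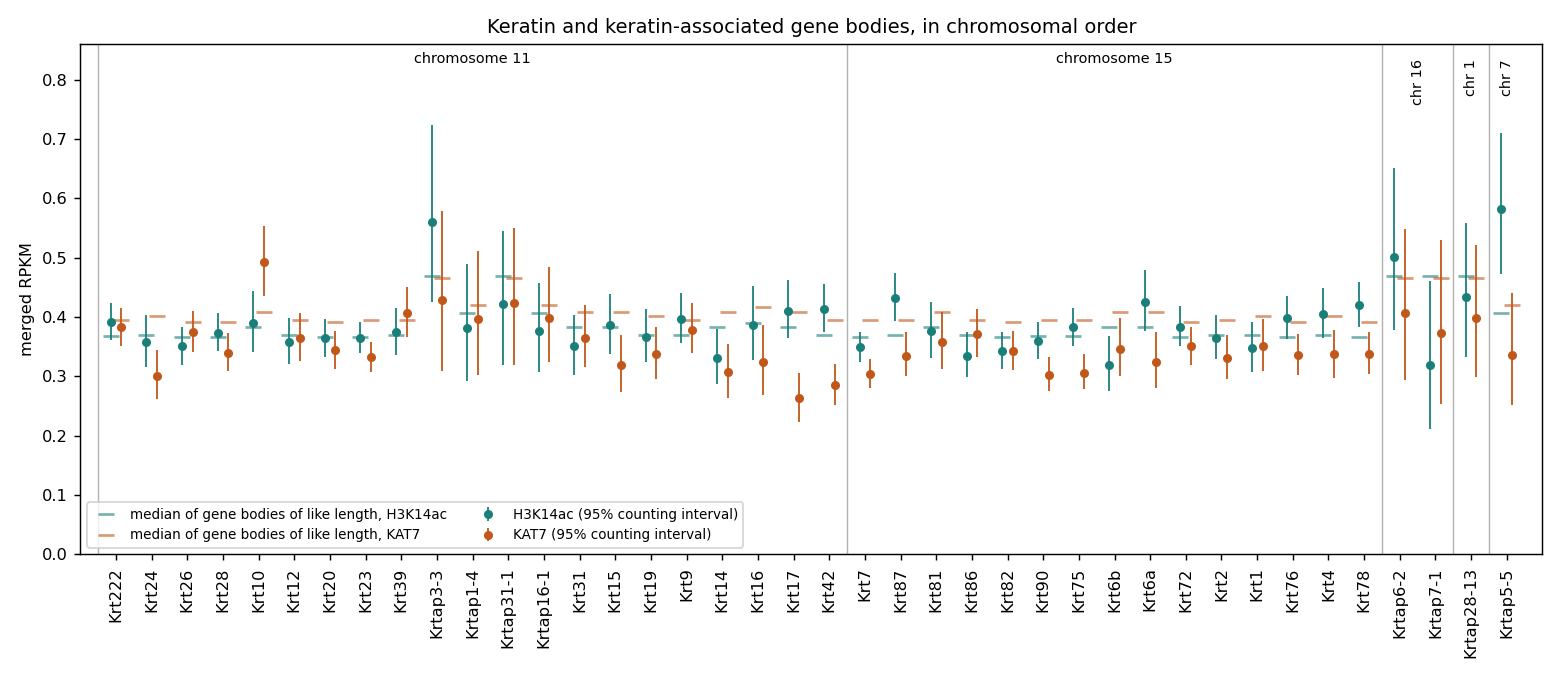
Merged RPKM (y axis) of H3K14ac and KAT7 at each of the 40 members (x axis, in chromosomal order), with 95% counting intervals as bars and the median of gene bodies of like length as dashes. Most KAT7 points lie under their dash, Krt10 lies above it, and the short Krtap genes have the widest intervals.

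The KAT7 to H3K14ac ratio carried the same difference. Both columns are scaled to their own totals, so a ratio compares scaled reads and not occupancy with acetylation. It was 0.908 (0.885 to 0.931) over all members, and the median over members was 0.916, beside 1.05 for all gene bodies used and 1.07 within the length range of the Krt genes. The ratio lay below that median of 1.05 in 16 members, against 21.1% of all gene bodies and 11.5% of those in the Krt length range, and above it in 1, against 19.1% and 19.4%. It lay wholly below 1 in 11 members, against 9.03%, and above 1 in 1, against 34.1%; in the Krt length range these shares were 5.71% and 30.5%. Across the 40 members H3K14ac and KAT7 were weakly related (Spearman's rho 0.112, beside 0.392 across all gene bodies used; members share libraries, and length sets part of both values).

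Chromosomes 11 and 15 did not differ beyond counting error in H3K14ac, and differed slightly in KAT7. The 17 chromosome 11 Krt genes and the 15 of chromosome 15 had a fold of 1.00 (0.968 to 1.04) in H3K14ac for chromosome 15 over chromosome 11. KAT7 was lower on chromosome 15, with a fold of 0.949 (0.914 to 0.986), and so was the ratio, with a ratio of ratios of 0.947 (0.899 to 0.997), an interval that ends just under 1. Both depended on the genes kept, in choices made after their values were seen. Without Krt10, the KAT7 fold was 0.964 (0.927 to 1.00) and the ratio of ratios 0.959 (0.911 to 1.01), both reaching 1. Without Krt16, Krt17 and Krt42 instead, they were 0.925 (0.889 to 0.962) and 0.911 (0.863 to 0.960), further from 1. The KAT7 medians over genes were close, 0.340 on chromosome 11 and 0.337 on chromosome 15. The median ratios were 0.927 and 0.870.

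On chromosome 11 (99233098 to 100269871), the summed values of all 21 members were 0.375 (0.366 to 0.385) for H3K14ac and 0.351 (0.342 to 0.361) for KAT7, or 1.01 and 0.881 (0.858 to 0.904) times the reference. KAT7 was below in 10 of 21, against 23.0% of all gene bodies, and the ratio was below the median in 6, against 21.1% of all gene bodies and 11.5% in the Krt length range. The ratio of 0.936 (0.903 to 0.970) lay wholly under 1. Without Krt16, Krt17 and Krt42 at one end of the cluster, which were picked for their low values, it was 0.971 (0.935 to 1.01), which reaches 1 and stays under the median of 1.05, and KAT7 was 0.905 (0.880 to 0.930) times the reference.

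On chromosome 15 (101412403 to 101954287), H3K14ac was 0.375 (0.366 to 0.384) and KAT7 0.331 (0.322 to 0.340), or 1.02 (0.991 to 1.04) and 0.837 (0.815 to 0.860) times the reference, with a ratio of 0.884 (0.852 to 0.917). KAT7 was below in 14 of 15 genes, all but Krt86, against 23.0% of all gene bodies, and the ratio was below the median in 9, against 21.1% and 11.5%. The lower KAT7 was thus spread over the measured genes of the chromosome 15 cluster, whose bodies cover 22.0% of the span.

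On chromosome 16 (89419323 to 89508323), only Krtap6-2 and Krtap7-1 were measured, and their few reads gave wide intervals. H3K14ac was 0.421 (0.336 to 0.521), KAT7 0.392 (0.308 to 0.492) and the ratio 0.931 (0.672 to 1.29). KAT7 stood at 0.842 (0.661 to 1.06) times the reference, a value that could not be told from 1 or from that of the other clusters at this depth.

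**Figure D2:**
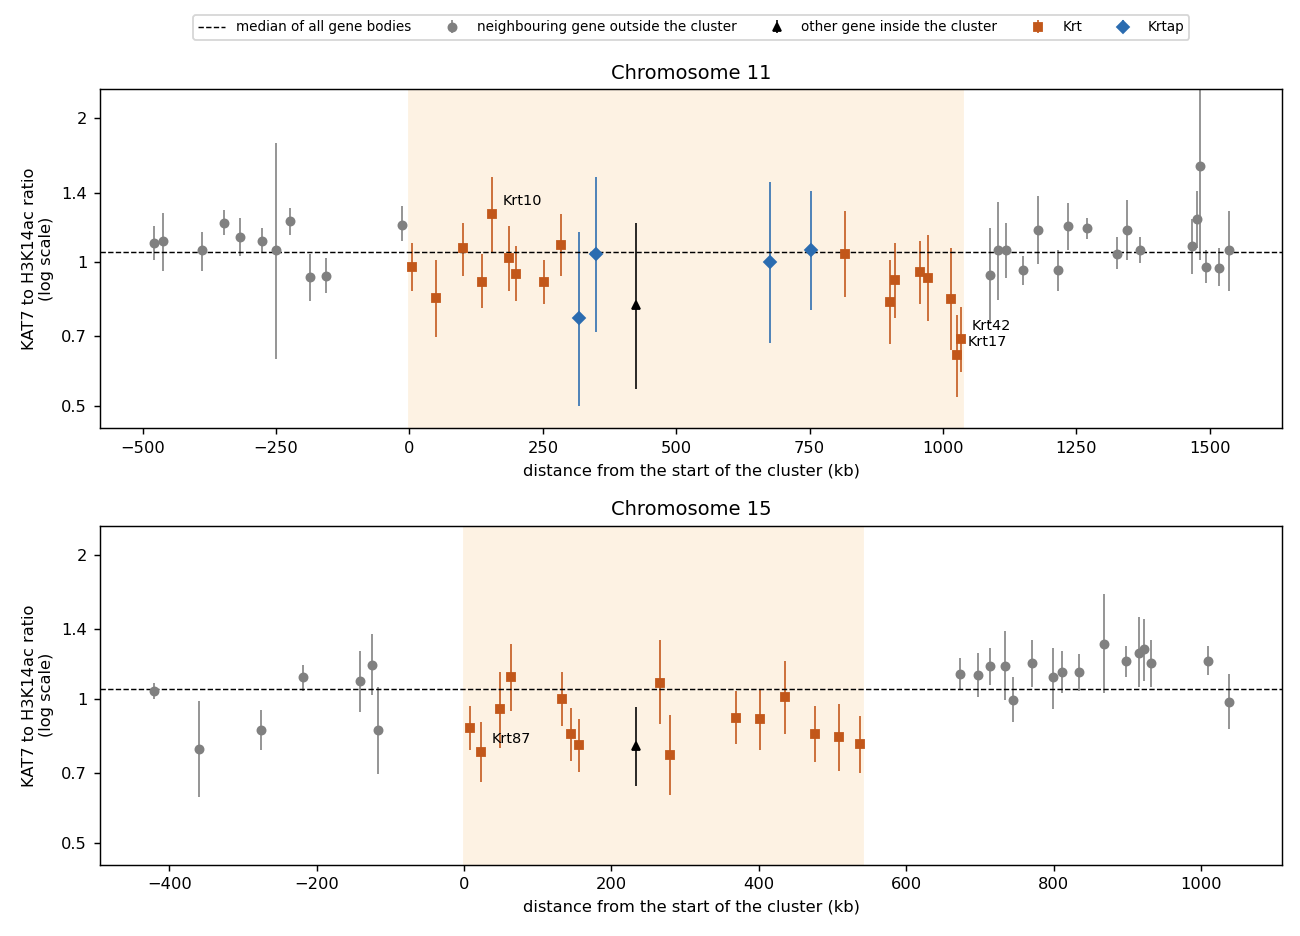
KAT7 to H3K14ac ratio (y axis, log scale) of members and neighbouring genes against distance from the start of the cluster (x axis, kb), with 95% counting intervals; the shaded span runs from the first to the last member and the dashed line is the median of all gene bodies, 1.05. Most Krt squares lie under the line in both clusters, Krt10 lies above it, and most neighbours lie on or above it.

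Summed over the genes just outside each large cluster, KAT7 was higher than in the cluster, although single neighbours were as low. Within 500 kb of the chromosome 11 cluster, 28 other genes had a KAT7 level of 0.403 (0.399 to 0.408) and a ratio of 1.09 (1.07 to 1.11). The cluster stood at 0.871 (0.846 to 0.896) times these neighbours in KAT7 and 1.02 (0.988 to 1.04) in H3K14ac. Around the chromosome 15 cluster, 23 neighbours had a KAT7 level of 0.392 (0.387 to 0.397) and a ratio of 1.10 (1.08 to 1.12); the cluster stood at 0.845 (0.820 to 0.871) times them in KAT7 and 1.05 (1.02 to 1.08) in H3K14ac. KAT7 was below the length-matched reference in 5 of the 28 and 7 of the 23 neighbours, against 23.0% of all gene bodies, and above it in 7 and 4. Several of the low ones lay on the Krt7 side of the chromosome 15 cluster: Fignl2 had a KAT7 level of 0.238 (0.199 to 0.281), whose interval overlaps that of Krt17, the lowest keratin gene, and a ratio of 0.787 (0.624 to 0.989). Smim41, the nearest used gene on that side, had 0.299 (0.256 to 0.348), and Acvrl1 had 0.341 with a ratio of 0.860 (0.781 to 0.947). These 3 genes were chosen after their values were seen. The ratio was under 1.05 in 17 of 21 members and 8 of 28 neighbours on chromosome 11, and in 13 of 15 members and 6 of 23 neighbours on chromosome 15. None of these neighbours was in the Bottom class, and 3 and 2 of them were Top, while 7 of 21 and 9 of 15 members were Bottom. Position and expression class thus moved together in part. Over all chromosomes, the 24 members outside the Bottom class had KAT7 at 0.881 (0.860 to 0.902) times the reference. Their ratio was 0.940 (0.909 to 0.972). The parts of position and expression class were not tested. Each cluster also held 1 gene of no keratin name, Gm11563 (KAT7 to H3K14ac ratio 0.814, 0.544 to 1.21) and Gm5478 (0.796, 0.656 to 0.963). The 1 neighbour on chromosome 16, Tiam1, had 0.369 and 0.364 RPKM and a ratio of 0.986, and the chromosome 16 ratio over it was 0.945 (0.690 to 1.29).

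By role, all classes of keratin had lower KAT7 than genes of like length. Krt7, Krt19 and Krt20, the keratins of simple epithelia such as ducts and gut, were all called below, and together stood at 0.818 (0.774 to 0.863) times the reference. The 17 keratins of stratified epithelia stood at 0.841 (0.818 to 0.866), with 14 below and Krt10 above, and a ratio of 0.880 (0.847 to 0.915). The 10 hair and inner root sheath keratins stood nearer the reference, at 0.891 (0.862 to 0.920), with 6 below and a ratio of 0.948 (0.906 to 0.991). Of all gene bodies, 23.0% were called below in KAT7 and 23.3% above. Within the Krt length range the share was 19.1% on each side. Whether these classes differ from each other beyond their overlap with the clusters was not tested.

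Krt7 (gene 110310, chromosome 15, 101412403 to 101427806), found in glandular and ductal epithelia, had 0.349 RPKM for H3K14ac and 0.304 for KAT7, a ratio of 0.870 (0.781 to 0.968). Its KAT7 was 0.771 (0.711 to 0.833) times the reference, while its H3K14ac interval of 0.886 to 1.02 times the reference included 1. Krt19, the smallest keratin, had 0.367 and 0.337, with a ratio of 0.918 (0.766 to 1.10). Krt20, of the gut lining, had 0.364 and 0.344, with a ratio of 0.945 (0.831 to 1.08). The intervals of the latter pair include both 1 and the median of all gene bodies.

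In the epidermis, basal cells use Krt14 and cells above them switch to Krt1 and Krt10. Krt14 (gene 16664, chromosome 11, 100203162 to 100207510) was low in both columns, 0.331 RPKM for H3K14ac and 0.307 for KAT7. These values were 0.865 (0.750 to 0.992) and 0.751 (0.645 to 0.870) times the reference, and the ratio of 0.927 (0.754 to 1.14) was not called. Krt10 (gene 16661, chromosome 11, 99385254 to 99389364) had an H3K14ac level of 0.390 (0.341 to 0.444) and a higher KAT7 level of 0.492 (0.435 to 0.554). It was the only member called above in KAT7, at 1.20 (1.06 to 1.36) times the reference, and the only one with a ratio above the median, 1.26 (1.05 to 1.51). Its filament partner Krt1 on chromosome 15 had 0.348 and 0.351, with KAT7 below the reference at 0.875 (0.770 to 0.990). The pair thus lay on opposite sides of the KAT7 reference. Krt15, a keratin of basal cells and of the hair follicle bulge, had 0.386 and 0.319, a ratio of 0.826 (0.676 to 1.01).

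Keratins of wounded skin and of skin appendages included the lowest ratios of the Krt genes. Krt17 (gene 16667, chromosome 11, 100256217 to 100260989) had 278 H3K14ac reads and 168 KAT7 reads, or 0.411 (0.364 to 0.462) and 0.263 (0.224 to 0.305) RPKM, the lowest KAT7 value of the 40. Its ratio was 0.639 (0.524 to 0.776), under that of all but 0.518% of gene bodies used. Krt42, its neighbour (gene 68239, 100262882 to 100269871), had 0.413 and 0.285 RPKM, a ratio of 0.690 (0.589 to 0.807), with H3K14ac above the reference at 1.12 (1.01 to 1.23) times and KAT7 below at 0.721 (0.637 to 0.813). At both genes KAT7 lay below the reference while H3K14ac did not. Krt16, beside them, had 0.387 and 0.324, and its ratio of 0.837 (0.655 to 1.07) was not called. Their type II counterparts on chromosome 15 differed from each other: Krt6a had 0.426 and 0.325 with a ratio of 0.765 (0.631 to 0.925), while Krt6b, close by, had 0.319 and 0.346 with a ratio of 1.08 (0.885 to 1.33) and H3K14ac below the reference at 0.834 (0.720 to 0.960). Krt6a and Krt6b are near-identical copies, so reads may be split or lost between them, and their difference is uncertain. The same may hold for other close relatives in the clusters, such as Krt14, Krt16 and Krt17.

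Other stratified epithelial keratins lay between these. Krt78 had 0.420 and 0.338 RPKM, a ratio of 0.804 (0.701 to 0.921), with H3K14ac above the reference at 1.15 (1.05 to 1.25) times. Krt76, of the palate, had 0.398 and 0.336, a ratio of 0.845 (0.737 to 0.968). Krt24 had 0.358 and 0.301, with KAT7 at 0.752 (0.653 to 0.862) times the reference. Krt9, of palm and sole skin, had 0.397 and 0.379, neither of them called. Krt90 and Krt222, which were in none of the role lists, had ratios of 0.844 (0.741 to 0.959) and 0.979 (0.871 to 1.10).

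Among hair keratins, Krt87 and Krt86 on chromosome 15, with Krt81 between them, lay apart. Krt87 (gene 406219, 101431490 to 101438804) had an H3K14ac of 0.432 (0.393 to 0.474), 1.17 (1.06 to 1.28) times the reference, and 0.335 for KAT7, a ratio of 0.776 (0.671 to 0.897). Krt86 (gene 16679, 101473478 to 101479983) had 0.335 and 0.371, a ratio of 1.11 (0.945 to 1.30), and was the 1 gene of that cluster whose KAT7 interval reached the reference. Krt75, of the companion layer between hair shaft and outer sheath, had 0.383 and 0.306, a ratio of 0.800 (0.705 to 0.908). Krt31, of the hair cortex, had 0.351 and 0.365, with a ratio of 1.04 (0.848 to 1.28). The ratio intervals of Krt26, Krt39 and Krt82 also included the median: Krt26 had 1.07 (0.936 to 1.21), Krt39 had 1.09 (0.936 to 1.26) and Krt82 had 1.00 (0.876 to 1.14). Krt72, of the inner root sheath, had 0.384 and 0.351, with KAT7 at 0.898 (0.818 to 0.983) times the reference. The hair keratins thus held both low ratios and ratios near the median.

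The keratin-associated genes were too short for most calls. No Krtap gene was called in KAT7; together the 8 stood at 0.890 (0.809 to 0.978) times the reference in KAT7 and had a ratio of 0.890 (0.782 to 1.01). The 4 of chromosome 11 exceeded the Krt genes of the same cluster in KAT7 RPKM, with a fold of 1.17 (1.03 to 1.32), but stood at 0.935 (0.824 to 1.06) times their own, shorter reference, and the ratio of ratios was 1.05 (0.883 to 1.25). Krtap5-5, alone on chromosome 7, had 97 H3K14ac reads and 53 KAT7 reads, or 0.582 (0.472 to 0.710) and 0.336 (0.252 to 0.440) RPKM. It had the highest H3K14ac of all members, 1.43 (1.16 to 1.74) times the reference, and the lowest ratio, 0.577 (0.405 to 0.815). Krtap7-1 had the fewest reads, 28 and 31, and H3K14ac below the reference at 0.679 (0.451 to 0.981) times, while Krtap6-2 had 0.501 and 0.407 RPKM with neither called. Krtap genes are members of multigene families, and reads shared between copies may have been lost before counting.

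How the Krt genes varied among themselves differed between the clusters. On chromosome 11, the SD of log2 H3K14ac over 17 genes was 0.0858, beside 0.0831 from counting alone, whereas that of log2 KAT7 was 0.211, beside 0.0898. On chromosome 15 the order was reversed, with 0.133 beside 0.0751 for H3K14ac and 0.0856 beside 0.0810 for KAT7. The spread above counting error thus lay in KAT7 on chromosome 11 and in H3K14ac on chromosome 15. On chromosome 11, Krt10 (0.492 RPKM), Krt17 (0.263) and Krt42 (0.285) were the extremes in KAT7, and the SD without them was not computed. Other gene bodies of the same length range spread more in the levels, with 0.390 for H3K14ac and 0.373 for KAT7 (n = 5426 with reads in both columns). In the log2 ratio their SD was 0.207, beside 0.235 on chromosome 11 and 0.171 on chromosome 15.

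**Figure D3:**
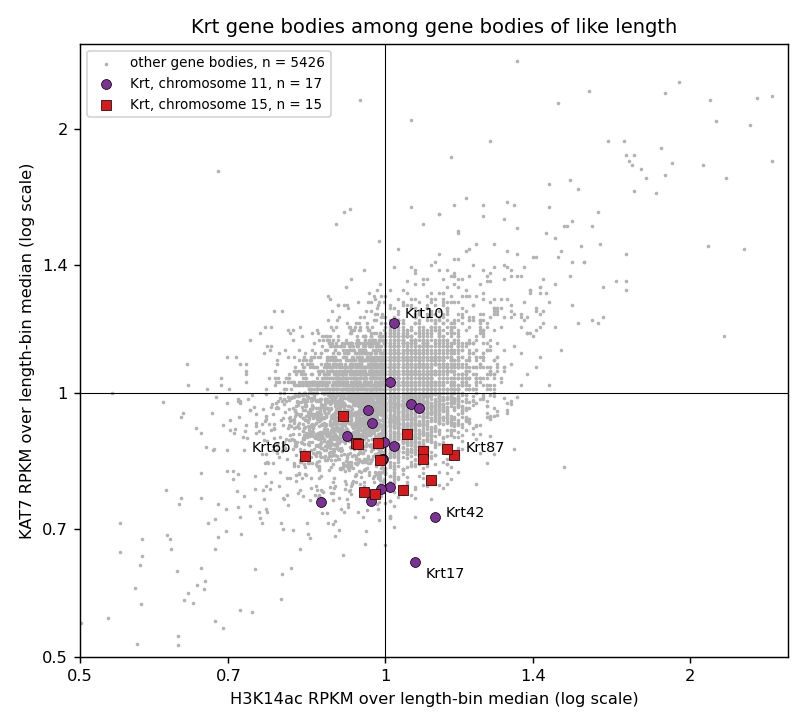
KAT7 RPKM over the length-bin median (y axis, log scale) against the same for H3K14ac (x axis, log scale) for the 32 Krt genes and 5426 other gene bodies of the same length range; points beyond the axes are not drawn. The Krt genes spread evenly about 1 on the x axis, and 30 of 32 lie under 1 on the y axis.

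Set beside other genes of the same length range, the Krt genes had lower KAT7 than the remaining Bottom genes. Among Krt genes 30 of 32 (93.8%) lay under the length-bin median in KAT7, beside 71.3% of 317 other Bottom genes, 46.9% of 49 olfactory and vomeronasal receptor genes, 12.8% of 320 Top genes and 51.3% of the remaining 4740. In H3K14ac the shares were 53.1% for the Krt genes, 35.0% for Bottom genes and 8.16% for receptors. Other Bottom genes had a summed KAT7 of 0.942 (0.937 to 0.947) times the reference and a ratio of 0.974 (0.967 to 0.982), against 0.857 (0.841 to 0.874) and 0.908 (0.885 to 0.932) for the Krt genes. Over genes of all lengths, the ratio of the 40 members was 0.924 (0.901 to 0.948) times that of the Bottom class, 0.919 (0.895 to 0.944) times that of the receptors and 0.826 (0.806 to 0.848) times that of the Top class. Among the members themselves, the 16 Bottom genes had a ratio of 0.866 (0.833 to 0.900) and the 24 others 0.940 (0.909 to 0.972).

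**Figure D4:**
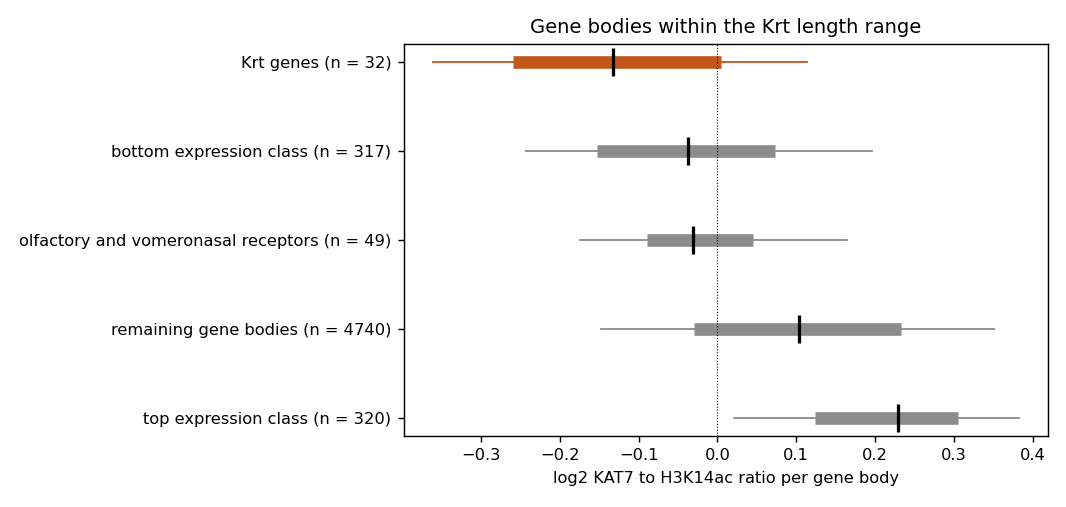
log2 KAT7 to H3K14ac ratio per gene body (x axis) for 5 groups within the Krt length range (y axis); ticks are medians, thick bars the middle 50% and thin lines the 10th to 90th percentiles. The Krt genes have the lowest median, -0.13, followed by the Bottom class and the receptors, and the Top class the highest, 0.23.

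Other intermediate filament genes had a higher ratio than the keratin genes as a list. Their summed ratio was 1.05 (1.02 to 1.08) and their median ratio 0.999, beside a median of 1.05 for all gene bodies used. Their list gave 11 gene bodies used, with a ratio above the median in 5, against 19.1% of all gene bodies, and below it in 2, against 21.1%. Nes, the progenitor filament gene, stood at 0.851 (0.802 to 0.902) in H3K14ac and 0.850 (0.800 to 0.903) in KAT7, each more than any keratin gene, and a ratio of 0.999 (0.918 to 1.09). Vim had 0.365 and 0.477, a ratio of 1.31 (1.15 to 1.48), and Gfap, the astrocyte filament gene on chromosome 11, had 0.397 and 0.388, a ratio of 0.977 (0.865 to 1.10). The ratio of the keratin genes was 0.866 (0.835 to 0.898) times that of this list. Vim had the H3K14ac level of a keratin gene with a higher KAT7 level, and Nes was high in both. Both genotypes carried a Cre transgene with regulatory sequence of Nes. Whether reads from the transgene add to the Nes values was not tested.

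Genes that act with keratins were mixed. Of 14 desmosome and cornified envelope genes, whose products anchor keratin filaments, 8 had a ratio below the median, against 21.1% of all gene bodies, and none above; Pkp1 had 0.888 (0.840 to 0.938) and Evpl 0.903 (0.819 to 0.996). Of 15 regulators of keratin genes, 9 were below the reference in H3K14ac, against 23.3% of all gene bodies, and the ratio was above the median in 5 and below it in 4, against 19.1% and 21.1%. Tfap2a, a transcription factor of early epidermis, had 0.285 and 0.391, a ratio of 1.37 (1.25 to 1.51), and Hoxc13, a regulator of hair keratins, 0.303 and 0.396, a ratio of 1.31 (1.13 to 1.52). Trp63, of basal epithelial cells, had 0.416 and 0.405, a ratio of 0.975 (0.950 to 1.00). Of 5 epidermal differentiation genes, Tchh, of the inner root sheath, had a ratio above the median, 1.29 (1.13 to 1.47).

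Each CpG island near a start site in the keratin clusters lay at a Krt gene. The chromosome 11 span held 2 (1.93 per Mb, beside 5.37 on the autosomes), the chromosome 15 span 3 (5.54 per Mb, close to the autosomal density) and the chromosome 16 span none. The island in Krt19 (100145310 to 100145807, its middle 360 bases into the gene) had 50 H3K14ac reads and 15 KAT7 reads, or 0.710 (0.527 to 0.936) and 0.225 (0.126 to 0.371) RPKM. Its ratio of 0.317 (0.165 to 0.574) was under that of all but 0.209% of 12894 islands. The island in Krt42 (100265543 to 100265746) had 28 and 13 reads and a ratio of 0.491 (0.233 to 0.979). Both islands of chromosome 11 were thus high in H3K14ac relative to KAT7, although the gene body of Krt19 was not called in the ratio. The islands lie inside these 2 genes, so their reads are also part of the gene body values.

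On chromosome 15, the islands of Krt7 and Krt87 contain the start site. That of Krt7 (101412210 to 101412817) was low in both columns, where H3K14ac was 0.232 (0.142 to 0.359) and KAT7 was 0.258 (0.160 to 0.394), percentiles 7.71 and 3.41 of islands. That of Krt87 (101438541 to 101439021) had 0.632 (0.457 to 0.851) and 0.482 (0.327 to 0.684), intervals that include the autosomal island medians of 0.460 and 0.491. The island in the 3′ part of Krt86 (101479272 to 101479537) had 17 and 20 reads. Other windows also covered the CG-rich start of Krt7, whose sequence is printed above. An element that the file names IS, over the same start site (101412284 to 101412518), had 10 H3K14ac reads and 17 KAT7 reads. Its KAT7 level of 0.542 (0.316 to 0.867) was at percentile 45.5 of its class. The element lies inside the island, so the 2 share reads, and their KAT7 intervals overlap. Percentiles are within each class of region. The file's promoter window of Krt7, 2001 bases long, had an H3K14ac level of 0.381 at percentile 50.1 of 9837 promoters and a KAT7 level of 0.287 (0.227 to 0.359) at percentile 2.20. Only 4 members are on the plus strand and have usable promoter windows. The other 3, Krt86, Krtap31-1 and Krtap28-13, had H3K14ac of 0.360 to 0.385 and KAT7 of 0.350 to 0.380.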

How the data were processed

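The labels name 13 libraries, and the columns used are merged over libraries that they do not list. Per the file headers, the authors deposited 1 merged read count and 1 RPKM score per antibody and region. Build mm10 and, as tools, featureCounts, deepTools, Picard, SAMtools and Bowtie2 are named, per the submitters' processing notes, without versions or roles. The suffix SC.gc of the columns is not explained, so a correction of the alignments before counting is possible. The deposited RPKM equalled the count over region length and 1 read total per column in 100% of regions (tolerance 1e-06). Here, gene bodies on autosomes that share no bases with another, at or below 5 RPKM and with at least 1 read were used (15834 of 20689). Levels are summed counts over summed lengths with exact Poisson intervals, ratios have exact binomial (Clopper-Pearson) intervals, and ratios of ratios have Woolf intervals, all at 95%. Reads are not independent molecules, so these cover counting error only. References were medians of non-member gene bodies in 20 length bins. The scripts used Python 3.11.15 with numpy 2.4.6, pandas 2.3.3 and scipy 1.17.1 and were tested on simulated data. Identifiers were matched to symbols in RefSeq's table for GRCm38.p6. The members, lists and comparisons were chosen with earlier results of these data known. Named genes were a fixed set of keratins with Nes, Vim and Gfap, the 3 highest and 3 lowest members per cluster and antibody, the 5 highest and lowest ratios, and members with a start site in an island; other genes named were chosen after their values were seen. Minus-strand promoter windows have a length of -1999 and no reads and were left out.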

Additional observations from a re-analysis of the deposited data

How the results depend on the processing

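Across 155 alternative values of 50 results, 141 stayed within the spread or interval set for them, 12 moved, 2 lost their call and none reversed. Part of this was fixed in advance. No member shared bases and all passed the filters on low RPKM and few reads, so these settings left summed levels and summed ratios unchanged. A reversal could be called only where the main interval excluded 1. H3K14ac over the length-matched reference therefore could not be called reversed. With the Bottom class as the length-matched reference, H3K14ac over the reference was 0.977 on chromosome 11, 0.982 on chromosome 15 and 0.982 over all members. KAT7 was 0.938, 0.888 and 0.915 in the same order. With that reference, 5 members were below in H3K14ac (3 with all gene bodies) and 12 in KAT7 (24 with all gene bodies). The share of all gene bodies called under it was not computed. Taking the median of member RPKM in place of the sum gave KAT7 on chromosome 11 as 0.365. Leaving out Krt16, Krt17 and Krt42, an alternative added after seeing the data, gave 0.905 for KAT7 over the reference and 0.971 for the ratio on chromosome 11. It gave 0.925 in KAT7 and 0.911 in the ratio for chromosome 15 over chromosome 11, both within their intervals. A flank of 250 kb gave 0.814 for KAT7 of chromosome 15 over its neighbours; for chromosome 16 that flank holds no gene and gave no value. The cause of each shift was not tested, beyond the change of reference or of genes that defines it. Leaving out Krt10, also added after seeing the data, brought chromosome 15 over chromosome 11 to 0.964 in KAT7 and 0.959 in the ratio, both reaching 1; it kept the levels and ratios of chromosome 11 and of all members within their intervals. No paired analysis was possible because the merged columns carry no replicate numbers, and no replicate could be left out for the same reason. Depth limits the Krtap genes most, where 28 to 101 reads per column leave wide intervals.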

Other observations

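Elements that the file names IS, an abbreviation it does not expand, were the most frequent regulatory class in the spans. They lay near start sites at 17.4 per Mb on chromosome 11 and 22.1 per Mb on chromosome 15, beside 13.1 per Mb on the autosomes, and far from start sites at 6.75 and 25.8 per Mb, beside 13.7 per Mb. None lay in the chromosome 16 span. The chromosome 11 span held no element of the class Enh far from a start site, beside 7.87 per Mb on the autosomes. Chosen after their values were seen, the 7 IS elements nearest the start of Krt17 had 91 H3K14ac reads and 43 KAT7 reads, a ratio of 0.499 (0.339 to 0.725), while the 4 nearest Krt19 had 22 and 36, a ratio of 1.73 (0.990 to 3.09). One of those at Krt17 (100259004 to 100259180) held 17 H3K14ac reads and 2 KAT7 reads. Its reads, and those of the other IS elements that overlap Krt17 or Krt19, are also part of the values of these gene bodies.

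Windows that the file labels as H3K9me3 domains also differed along the clusters. A window on chromosome 15 that holds the start of Krt87 (101433498 to 101445498) had an H3K14ac RPKM of 0.405 (0.375 to 0.436) and a KAT7 RPKM of 0.322 (0.295 to 0.351), and its ratio of 0.797 (0.710 to 0.895) was under that of all but 0.156% of 10240 such windows. A window between the Krtap genes of chromosome 11 (99710315 to 99722315) lay the other way, with 0.373 (0.344 to 0.403) and 0.447 (0.415 to 0.481), a ratio of 1.20 (1.08 to 1.34). Both windows were chosen after their values were seen. The window at Krt87 shares bases, and so reads, with the Krt87 gene body and its CpG island.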
